A study of Mus musculus with 10 samples.

Results

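The genes examined here are 10 of the classical cadherins, catenins and nectins that build adherens junctions, such as those of supporting cells. They are the cadherins Cdh1, Cdh2 and Cdh3, the catenins Ctnna1, Ctnnb1, Ctnnd1 and Jup, and the nectins Nectin1, Nectin2 and Nectin3. They were chosen by name from the families and matched by GRCm38 symbol to 10 of the 48709 genes in the deposited tables. The 10 RNA-sequencing libraries came from supporting cells of the mouse utricle, a balance organ of the inner ear. The utricles were taken from Lfng-EGFP mice, in which the Lfng promoter drives green fluorescent protein in supporting cells, at postnatal day 21. They were cultured, and the fluorescent cells were then sorted. TRULI, an inhibitor of the Lats kinases that restrain the growth regulator Yap, was given at 10 μM in 0.1% DMSO for 5 days (TRULI_d5), and controls received 0.1% DMSO alone (DMSO_d5). In the other groups a further 5 days without treatment followed (TRULI_d10 and DMSO_d10). The labels give 3 libraries each of DMSO_d5 and TRULI_d5 and 2 each of DMSO_d10 and TRULI_d10.

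Adherens junctions hold epithelial cells together. A classical cadherin binds a cadherin of the neighbouring cell with its extracellular domain and binds β-catenin (Ctnnb1) or plakoglobin (Jup) with its tail. α-Catenin (Ctnna1) links that complex to actin, and p120-catenin (Ctnnd1) holds the cadherin at the membrane. Nectins start such contacts and reach actin through afadin. In the mammalian vestibular epithelium, E-cadherin (Cdh1) accumulates in the junctions of supporting cells as the organ matures, and these junctions become stiff.

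For 4 of the 10 libraries the condition in the label differed from the condition in the name under which the table was deposited. The libraries labelled TRULI_d5 replicates 1 and 2 were deposited as DMSO_d10 replicates 1 and 2, and those labelled DMSO_d10 replicates 1 and 2 were deposited as TRULI_d5 replicates 2 and 3. The library labelled TRULI_d5 replicate 3 was deposited as TRULI_d5 replicate 1, and the other 5 libraries carried the same condition in both sources. The sources used here do not say which of the 2 is right. Groups were formed from the labels, and the comparisons were repeated with groups formed from the names. The libraries held from 2463872 to 6255149 counts. Transcripts of mt-Rnr2, a ribosomal RNA of mitochondria, made up 1.45% to 2.53% of counts in 4 libraries, which were labelled TRULI_d5 replicates 1 and 2 and TRULI_d10 replicates 1 and 2, and from 13.0% to 26.4% in the other 6. These 4 are the libraries named for 10 days, so that under the names mt-Rnr2 and culture time cannot be told apart, and under the labels mt-Rnr2 and TRULI cannot be told apart at 10 days. The study's methods call the replicates biological, and nothing in the sources used here says which libraries of a group came from separate animals or cultures, so the p-values measure the spread between these libraries, which may in part be technical. All 16 supporting-cell markers had counts in every library, and 14 of them reached 10 CPM (counts per 1000000 of the library) or more in every library. Their summed level was 9324 to 15688 CPM in the 6 libraries high in mt-Rnr2 and 5316 to 8398 CPM in the 4 low in it. Lfng, whose promoter drives the reporter used for the sort, lay between 290.6 and 564.5 CPM in the 6 and between 21.2 and 100.4 CPM in the 4. The part of these differences in the results below was not tested. Several members below separate these 4 libraries from the other 6, and the share of all genes that do so was not counted. Between the groups named for 10 and for 5 days, which set some of the 4 against some of the 6, libraries did not overlap for 54.9% of genes (DMSO) and 51.6% (TRULI). Groups of so few libraries come apart more readily than 4 against 6. These shares therefore do not stand in for the one not counted.

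All 10 members were detected, and their levels per transcript length fell into a wide order. Levels are compared between genes in TPM (transcripts per 1000000) over protein-coding genes, which takes account of length. Ctnnb1 had the highest level in every library, with a median of 481 TPM (range 276 to 649, n = 10 libraries). Ctnna1 followed at a median of 159 TPM, Nectin3 at 117, Cdh1 at 85.5 and Ctnnd1 at 78.2 TPM. Cdh2 had a median of 50.4 TPM, Jup 47.6, Nectin2 32.5 and Nectin1 8.07 TPM. Cdh3 was last, with a median of 2.14 TPM and a highest value of 5.82 TPM. Ctnnb1 exceeded Ctnna1, Nectin2 exceeded Nectin1 and Nectin1 exceeded Cdh3 in all 10 libraries. Neighbours in the middle of the order were not separated. Nectin3 exceeded Cdh1 in 6 libraries, Cdh1 exceeded Ctnnd1 in 5, and Cdh2 exceeded Jup in 4 of 10.

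**Figure D1:**
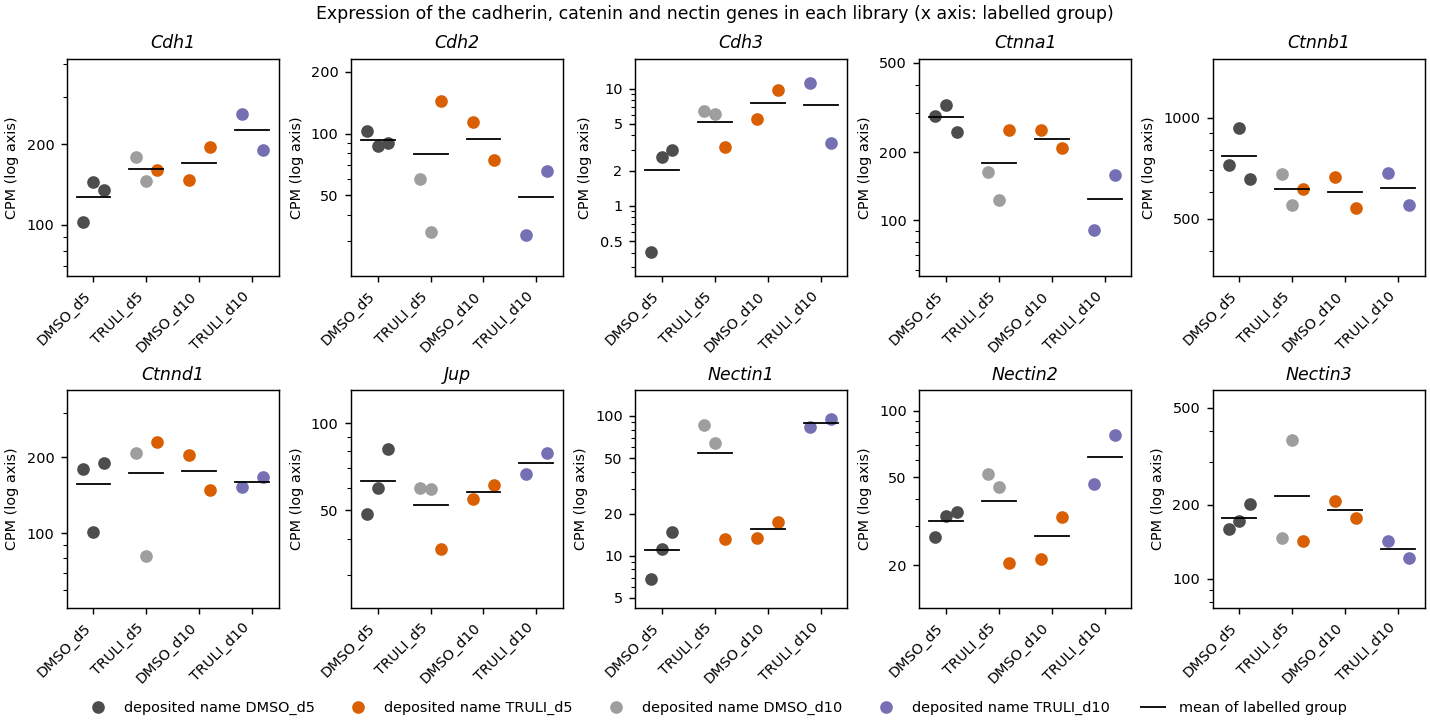
Each panel plots 1 gene in CPM on a log axis, with the labelled group on the x axis, the colour giving the condition in the deposited name and the bar the mean of the labelled group. Nectin1 lay between 63.7 and 95.2 CPM in the 4 libraries named for 10 days and between 6.81 and 17.5 CPM in the other 6.

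Among the cadherins, Cdh1 encodes E-cadherin, the main cadherin of epithelia (chr8:106603351-106670246). Values within a gene are given in CPM, scaled by the trimmed mean of M values (TMM) over all 10 libraries. Cdh1 measured 103, 144 and 135 CPM in DMSO_d5 replicates 1 to 3 and 179, 145 and 161 CPM in the libraries labelled TRULI_d5 replicates 1 to 3. It measured 147 and 195 CPM in those labelled DMSO_d10 and 261 and 191 CPM in TRULI_d10. In CPM the DMSO_d5 libraries held the 3 lowest values of the series, by a narrow margin (144.3 against 145.5 CPM). Every other library lay above them in CPM, whichever source gave its condition. In TPM this order did not hold. The library labelled TRULI_d5 replicate 2 was lowest there, at 54.4 TPM, and DMSO_d5 lay at 56.0, 76.3 and 81.8 TPM. The share of all genes with DMSO_d5 lowest was not counted. In the 9 comparisons by edgeR's quasi-likelihood test, 0 of the Cdh1 tests reached an adjusted p under 0.05. The labelled TRULI_d5 libraries exceeded DMSO_d5 by 0.36 on the log2 scale (SE 0.31, adjusted p = 0.584), and the libraries named TRULI_d5 by 0.42 (SE 0.22, adjusted p = 0.392). At 10 days the labelled difference was 0.41 (SE 0.36, adjusted p = 0.515) and the named difference 0.49 (SE 0.39, adjusted p = 0.9998). The widest Cdh1 difference was that of TRULI_d10 over DMSO_d5, at 0.82 (SE 0.28, adjusted p = 0.0711). The libraries of that comparison carry the same condition in both sources, and treatment and culture time cannot be told apart in it. DESeq2 gave an adjusted p of 0.0348 there, with a log2 fold change of 0.84. Of the 11 refits of that comparison, 3 called Cdh1, DESeq2 among them.

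Cdh2 encodes N-cadherin, the cadherin of neural and many sensory cells (chr18:16588877-16809246). It measured 103, 86.6 and 89.7 CPM in DMSO_d5 and 59.9, 33.1 and 144 CPM in the libraries labelled TRULI_d5. It measured 114 and 73.9 CPM in those labelled DMSO_d10 and 32.1 and 65.9 CPM in TRULI_d10. The 4 libraries low in mt-Rnr2 were below the other 6, from 32.1 to 65.9 CPM against 73.9 to 144 CPM. Under the labels the TRULI_d5 group thus held both the highest library of the series and one of the lowest. Cdh2 did not pass the test in any of the 9 comparisons. TRULI_d10 lay below DMSO_d5 by a log2 fold change of -0.93 (SE 0.36, adjusted p = 0.0995), and the libraries named DMSO_d10 lay below DMSO_d5 by -1.005 (SE 0.34, adjusted p = 0.0684). In the named groups at 5 days, all of which were high in mt-Rnr2, the Cdh2 difference was 0.27 (SE 0.26, adjusted p = 0.667). At 10 days, among libraries all low in it, the named difference was 0.076 (SE 0.58, adjusted p = 0.9998).

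Cdh3 encodes P-cadherin, a cadherin of skin and placenta (chr8:106510891-106557297), whose annotated end lies 46054 bases before the start of Cdh1 on the same strand. It had from 1 to 64 counts a library and so the least precise values of the 10 genes. Cdh3 measured 0.401, 2.64 and 2.98 CPM in DMSO_d5 and from 3.16 to 11.2 CPM in the other 7 libraries. The value of 1 count in DMSO_d5 replicate 1 lay under the 3-count floor of that library, 1.20 CPM. The labelled TRULI_d5 libraries lay 1.35 above DMSO_d5 on the log2 scale (SE 0.80, adjusted p = 0.452), and the labelled DMSO_d10 libraries 1.86 (SE 0.73, adjusted p = 0.261). The libraries named TRULI_d5 lay 1.56 above DMSO_d5 (SE 0.68, adjusted p = 0.28), and those named DMSO_d10 1.58 (SE 0.79, adjusted p = 0.181). No Cdh3 difference passed the test.

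The proportion of E-cadherin to N-cadherin transcript can be read within a library, where scaling between libraries has no part. It was taken as the log2 ratio of Cdh1 to Cdh2 counts per effective length, with 0.5 counts added. The ratio was -0.24, 0.50 and 0.36 in DMSO_d5 and 1.37, 2.02 and -0.038 in the libraries labelled TRULI_d5. It was 0.14 and 1.19 in those labelled DMSO_d10 and 2.78 and 1.41 in TRULI_d10. The 4 libraries low in mt-Rnr2 had the 4 highest ratios, the lowest of them 1.37 against at most 1.19 in the other 6. The labelled TRULI_d5 mean exceeded that of DMSO_d5 by 0.91 (exact permutation test over libraries, two-sided, p = 0.3), and the named TRULI_d5 mean by 0.22 (exact permutation p = 0.8). At 10 days TRULI exceeded DMSO by 1.43 in the labelled groups (exact permutation p = 0.333) and by 0.40 in the named groups (exact permutation p = 0.667). TRULI_d10 exceeded DMSO_d5 by 1.89 (exact permutation p = 0.2). The libraries named DMSO_d10 exceeded DMSO_d5 by 1.49, and those named TRULI_d10 exceeded those named TRULI_d5 by 1.66 (exact permutation p = 0.2 for each). With so few libraries these tests could not go below 0.1 for 3 against 3, 0.2 for 2 against 3 and 0.333 for 2 against 2, so that none could pass 0.05.

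**Figure D2:**
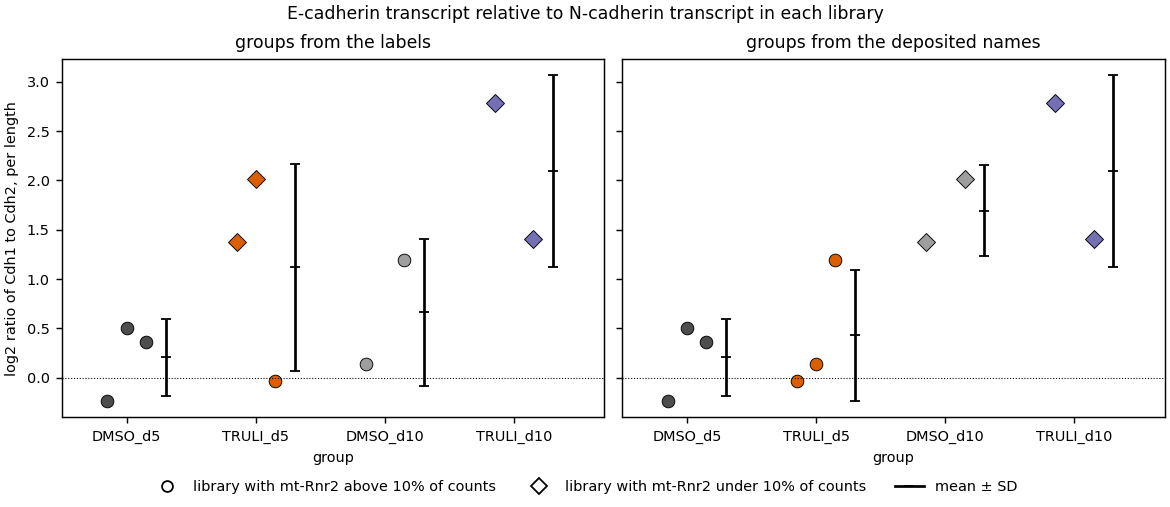
The log2 ratio of Cdh1 to Cdh2 per length is plotted for each library, grouped by label on the left and by deposited name on the right, with the mean ± SD beside each group. Diamonds are the libraries with mt-Rnr2 under 10% of counts, which lie at 1.37 to 2.78, and circles are those above 10%, which lie at -0.24 to 1.19.

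Among the catenins, α-catenin changed in one comparison of each kind. Ctnna1 (chr18:35118859-35254779) measured 290, 325 and 246 CPM in DMSO_d5 and 163, 123 and 252 CPM in the libraries labelled TRULI_d5. It measured 252 and 210 CPM in those labelled DMSO_d10 and 90.2 and 158 CPM in TRULI_d10. The 4 libraries low in mt-Rnr2, from 90.2 to 163 CPM, lay below the other 6, from 210 to 325 CPM, without overlap. Ctnna1 was lower in TRULI_d10 than in DMSO_d5 by a log2 fold change of -1.21 (SE 0.32, edgeR adjusted p = 0.0323). It was also lower in the libraries named DMSO_d10 than in DMSO_d5, by -1.01 (SE 0.29, edgeR adjusted p = 0.0388). These comparisons share their 3 control libraries. The call against DMSO_d5 was lost when any of the 3 controls or TRULI_d10 replicate 1 was left out, with adjusted p from 0.0739 to 0.127, and in the fit of all 10 libraries (adjusted p = 0.102). In the named comparison it was lost without DMSO_d5 replicate 1, 2 or 3 or DMSO_d10 replicate 2, with adjusted p from 0.0727 to 0.154, and with the replicate number as a block (adjusted p = 0.0642). The libraries named TRULI_d10 lay below those named TRULI_d5 by -0.91 (SE 0.32, edgeR adjusted p = 0.0907). Between TRULI and DMSO libraries named for the same day the differences were -0.25 (SE 0.21, edgeR adjusted p = 0.612) at 5 days and -0.20 (SE 0.44, edgeR adjusted p = 0.9998) at 10 days.

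The other catenins did not pass the test in any comparison. Ctnnb1, which encodes the β-catenin shared by junctions and Wnt signalling (chr9:120929216-120960507), lay between 538 and 935 CPM, a span of 1.74-fold, the narrowest of the 10 genes. Its highest library was DMSO_d5 replicate 2 at 935 CPM. The log2 difference of TRULI_d5 from DMSO_d5 was -0.31 (SE 0.34, edgeR adjusted p = 0.673) by label and -0.32 (SE 0.22, edgeR adjusted p = 0.517) by name. Ctnnd1 (chr2:84600071-84650765) lay between 81.4 and 230 CPM, and its lowest values were those of the library labelled TRULI_d5 replicate 2 at 81.4 CPM and of DMSO_d5 replicate 2 at 102 CPM. Jup (chr11:100368958-100397763) lay between 36.9 and 81.3 CPM, with DMSO_d5 replicate 3 highest and the library labelled TRULI_d5 replicate 3 lowest. Its log2 difference between TRULI_d10 and DMSO_d10 was 0.34 (SE 0.37, edgeR adjusted p = 0.605) by label and 0.30 (SE 0.46, edgeR adjusted p = 0.9998) by name. Ctnnb1 made up 73.3% to 87.2% of the summed TPM of the 3 catenins that share its armadillo repeats, and Jup 5.14% to 13.6%.

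The nectins are immunoglobulin-like adhesion molecules, and the last residues of their tails bind afadin. In the cochlea, nectin-1 is a nectin of hair cells and nectin-3 of supporting cells. The annotated transcripts with a consensus coding sequence differ at that end, so the last 48 coding bases and the stop codon of each are shown, with the last 4 codons in capitals. The sequences are those of GENCODE M21 on GRCm38 and run 5′ to 3′ along the transcript.
Nectin1-201 (chr9:43803966-43804016, + strand): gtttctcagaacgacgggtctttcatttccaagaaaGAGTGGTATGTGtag
Nectin2-201 (chr7:19717515-19717565, - strand): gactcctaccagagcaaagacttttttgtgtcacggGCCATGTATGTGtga
Nectin2-202 (chr7:19724481-19724531, - strand): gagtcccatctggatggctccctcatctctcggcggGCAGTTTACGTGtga
Nectin3-201 (chr16:46448388-46448438, - strand): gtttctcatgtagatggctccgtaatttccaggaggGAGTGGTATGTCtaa
Nectin3-202 (chr16:46395096-46395146, - strand): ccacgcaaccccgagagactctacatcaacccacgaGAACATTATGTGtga
Nectin3-203 (chr16:46436330-46436380, - strand): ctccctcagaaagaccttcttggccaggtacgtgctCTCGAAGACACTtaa
Each stretch lies in 1 exon. The end of Nectin3-203 lacks the tyrosine and valine codons that close the others, and afadin binding was not examined here.

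The largest fold change of a member between groups, over the 9 comparisons, was that of Nectin1. It (chr9:43743984-43807461) measured 6.81, 11.2 and 14.9 CPM in DMSO_d5 and 86.6, 63.7 and 13.2 CPM in the libraries labelled TRULI_d5. It measured 13.5 and 17.5 CPM in those labelled DMSO_d10 and 83.2 and 95.2 CPM in TRULI_d10. The 4 libraries low in mt-Rnr2 lay at 63.7 CPM or more and the other 6 at 17.5 CPM or less, with from 17 to 552 counts a library behind these values. Nectin1 was higher in TRULI_d10 than in DMSO_d5 by a log2 fold change of 2.999 (SE 0.39, edgeR adjusted p = 0.00476), and this call held when any 1 of the 5 libraries was left out. In the fit of all 10 libraries its adjusted p was 0.0632. It was higher in TRULI_d10 than in the libraries labelled DMSO_d10, by 2.53 (SE 0.42, edgeR adjusted p = 0.0419). That call was lost without either control (adjusted p of 0.334 without replicate 1 and 0.198 without replicate 2) and in the fit of all 10 libraries (adjusted p = 0.173). In the groups by name TRULI_d10 exceeded DMSO_d10 by 0.26 (SE 0.45, edgeR adjusted p = 0.9998).

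At 5 days the labelled Nectin1 difference was 2.32 (SE 0.66, edgeR adjusted p = 0.328) and did not pass the test. Of the 3 labelled TRULI_d5 libraries, replicate 3 lay at 13.2 CPM, within the range of DMSO_d5, and without it the difference was 2.75 with an adjusted p of 0.00758. DESeq2 on all 6 libraries gave an adjusted p of 0.0323. With the library whose label and name agree as the only TRULI_d5 library, a choice made after seeing the data, the Nectin1 difference was 0.25 (SE 0.56, edgeR adjusted p = 0.939). In the groups by name it was 0.43 (SE 0.38, edgeR adjusted p = 0.63). Nectin1 was higher in libraries named for 10 days within each treatment. The difference was 2.75 (SE 0.41, edgeR adjusted p = 0.00758) between DMSO groups and 2.62 (SE 0.33, edgeR adjusted p = 0.0092) between TRULI groups. The first was lost without DMSO_d5 replicate 2 (adjusted p = 0.0693) and the second without the library named TRULI_d5 replicate 2 (adjusted p = 0.0765). The labelled differences with time were 0.49 (SE 0.43, edgeR adjusted p = 0.654) for DMSO and 0.72 (SE 0.70, edgeR adjusted p = 0.999) for TRULI.

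Nectin2 (chr7:19716644-19750483) measured 26.8, 33.6 and 35.0 CPM in DMSO_d5 and 51.9, 45.4 and 20.6 CPM in the libraries labelled TRULI_d5. It measured 21.4 and 33.0 CPM in those labelled DMSO_d10 and 46.9 and 77.5 CPM in TRULI_d10. In CPM the 4 libraries low in mt-Rnr2 lay above the other 6, from 45.4 CPM against at most 35.0 CPM. Unlike Nectin1, Nectin2 did not separate them in TPM. The library labelled TRULI_d5 replicate 2, low in mt-Rnr2, had 29.1 TPM, and DMSO_d5 replicate 3 had 37.3 TPM. No comparison passed the test. The named TRULI_d10 libraries exceeded the named TRULI_d5 libraries by 1.33 (SE 0.39, edgeR adjusted p = 0.0536), TRULI_d10 exceeded DMSO_d5 by 0.96 (SE 0.34, edgeR adjusted p = 0.0794), and TRULI_d10 exceeded labelled DMSO_d10 by 1.19 (SE 0.47, edgeR adjusted p = 0.168). Over the libraries named DMSO_d10 the Nectin2 difference was 0.36 (SE 0.51, edgeR adjusted p = 0.9998). Between named TRULI_d5 and DMSO_d5 the difference was -0.33 (SE 0.28, edgeR adjusted p = 0.629).

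Nectin3 (chr16:46387706-46498525) measured from 122 to 207 CPM in 9 libraries and 367 CPM in the library labelled TRULI_d5 replicate 2. No Nectin3 difference passed the test. TRULI_d10 lay below the libraries named DMSO_d10 by a log2 fold change of -0.95 (SE 0.49, edgeR adjusted p = 0.9998) and below the labelled DMSO_d10 libraries by -0.53 (SE 0.33, edgeR adjusted p = 0.363). The named difference ranged from -1.47 to -0.13 with 1 library left out. Its effective length, the transcript length that the counting program averages over a gene's isoforms in each library, moved with the library more than that of any other member. It was 3010 to 3855 bases in the 6 libraries high in mt-Rnr2 and 4335 to 5806 bases in the 4 low in it. The annotated lengths of the transcripts shown above are 3062 bases for Nectin3-201, 9116 for Nectin3-202 and 1746 for Nectin3-203. For Nectin1 the effective length stayed between 4819 and 4835 bases. Counts per isoform were not analysed here.

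Per length, Nectin3 made up 71.8% to 82.4% of the summed nectin TPM in the 6 libraries high in mt-Rnr2. In the 4 low in it Nectin3 made up 39.1% and 72.7% (labelled TRULI_d5 replicates 1 and 2) and 44.1% and 29.2% (TRULI_d10 replicates 1 and 2). Nectin1 made up 2.26% to 5.71% in the 6 and 27.8%, 11.3%, 26.4% and 27.5% in the 4. The longer effective length of Nectin3 lowers its TPM in those 4 libraries, so the shares carry that length as well as the counts.

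**Figure D3:**
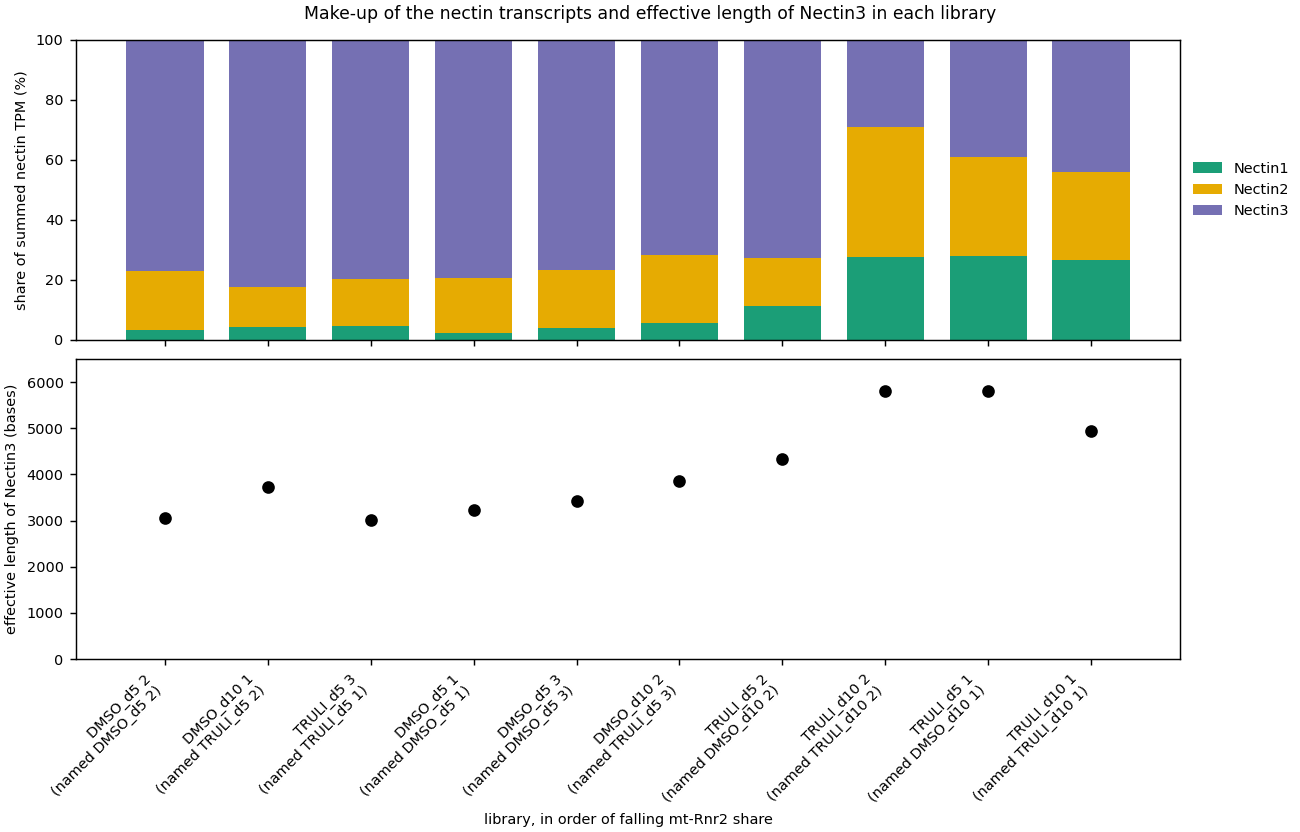
The upper panel gives the share of each nectin in the summed nectin TPM of each library and the lower panel the effective length of Nectin3 in bases, with the libraries in order of falling mt-Rnr2 share. The 4 libraries on the right, under 10% mt-Rnr2, had the largest Nectin1 shares (11.3% to 27.8%) and the longest Nectin3 effective lengths.

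Over the 10 members together, few calls were made in any comparison, and all 10 passed the filter on low counts in each. Between the labelled TRULI_d5 and DMSO_d5 libraries 0 of 10 members passed edgeR's test, against 0.00945% of the 10580 protein-coding genes tested. At an unadjusted p under 0.05 there was 1 member, against 13.7% of genes, and DESeq2 called 1. By name 0 of 10 passed, against 3.32% of 10984 genes. With the replicate number as a block, which pairs these named libraries, 0 members and 1117 genes passed. Unblocked, 1 member had an unadjusted p under 0.05, against 16.4% of genes, and DESeq2 called 0 members. In CPM, the scale of all counts of overlap here, the groups did not overlap for 2 members by label, against 18.4% of genes. By name they did not overlap for 2, against 21.4%. These were Cdh1 and Cdh3 in both, higher in TRULI_d5.

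At 10 days, Nectin1 was the 1 member called by label, against 1.97% of 11469 genes, and 0 were called by name, where 0% of 10845 genes were. At an unadjusted p under 0.05 there were 2 members by label, Nectin1 and Nectin2, against 24.6% of genes, and 0 by name, against 4.52%. The groups did not overlap for 6 members by label, against 58.1% of genes, and for 3 by name, against 28.7%. The 3 were Cdh1 and Jup, higher in TRULI_d10, and Nectin3, lower in it. The difference between the TRULI effect at 10 days and that at 5 days was tested in a fit of all 10 libraries. It passed for 0 members by label and 0 by name, with 0 members at an unadjusted p under 0.05 in either, against 6.65% and 9.31% of 11918 genes. For Nectin1 it was 0.22 (SE 0.89, edgeR adjusted p = 0.9998) by label and -0.16 (SE 0.51, edgeR adjusted p = 0.962) by name, and for Cdh1 it was 0.059 (SE 0.46, edgeR adjusted p = 0.9998) and 0.082 (SE 0.39, edgeR adjusted p = 0.981).

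With time, 0 members were called between labelled DMSO_d10 and DMSO_d5, against 2.54% of 11348 genes, and 1 had an unadjusted p under 0.05, against 15% of genes. Between labelled TRULI_d10 and TRULI_d5 0 were called, where 0% of 11444 genes were, and 0 had an unadjusted p under 0.05, against 3.03% of genes. By name 2 members were called for DMSO, Nectin1 higher and Ctnna1 lower, against 19.2% of 10810 genes, and 1 for TRULI, Nectin1 higher, against 14.3% of 11648 genes. TRULI_d10 against DMSO_d5 gave the same 2 members as the named DMSO comparison, with which it shares its controls, against 20.5% of 11112 genes. The shares of members called here, 2, 1 and 2 of 10, were close to those of all genes. In the same order, 3, 4 and 5 members had an unadjusted p under 0.05, against 36.6%, 33.3% and 36.9% of genes. The groups did not overlap for 6, 5 and 7 members, against 54.9%, 51.6% and 53.1% of genes. In the labelled comparisons over time they did not overlap for 2 members each, against 31.5% of genes for DMSO and 15.9% for TRULI. The median log2 fold change of the members in TRULI_d10 against DMSO_d5 was 0.11, beside 0.013 for all genes tested. It was 0.24 beside 0.043 in the labelled comparison at 5 days and 0.14 beside 0.022 in the named one.

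**Figure D4:**
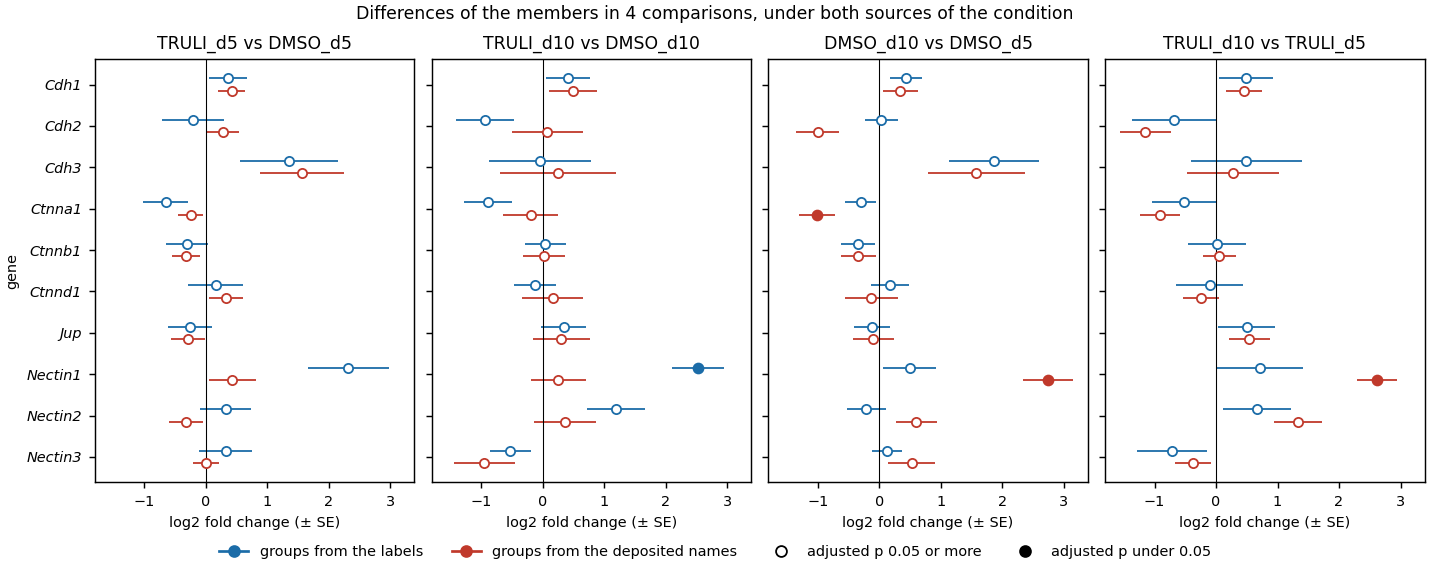
The log2 fold change with its SE is plotted for each member in 4 comparisons, in blue for groups from the labels and in red for groups from the deposited names, with filled points for an adjusted p under 0.05. Nectin1 is the filled blue point at 2.53 in TRULI_d10 vs DMSO_d10 and the filled red point at 2.75 and 2.62 in the comparisons over time, and Ctnna1 is the filled red point at -1.01.

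The members work with proteins that tie them to actin and to each other, and 24 of 25 such adaptors were tested in TRULI_d10 against DMSO_d5. There 6 rose and 3 fell, where 20.5% of all genes were called, with a median log2 fold change of 0.33 beside 0.013 over all genes. The 4 of lowest p included Afdn, which encodes afadin, the partner of nectin tails. It lay between 245 and 451 CPM in the 6 libraries high in mt-Rnr2 and between 417 and 792 CPM in the 4 low in it, and rose by 1.28 on the log2 scale (SE 0.26, edgeR adjusted p = 0.0145). Vcl, which encodes vinculin, a partner of α-catenin under tension, rose by 2.48 (SE 0.47, edgeR adjusted p = 0.0126). Actn4, an α-actinin, changed by -2.00 (SE 0.40, edgeR adjusted p = 0.0145), and Wtip, a LIM protein of junctions, by 2.42 (SE 0.50, edgeR adjusted p = 0.0153). In the libraries labelled TRULI_d10 and DMSO_d10, 1 adaptor was higher and 2 were lower of 24 tested, against 1.97% of all genes. These were Vcl, at 3.42 (SE 0.36, edgeR adjusted p = 0.0307), Ajuba, at -3.77 (SE 0.47, edgeR adjusted p = 0.0307), and Actn4, at -2.64 (SE 0.48, edgeR adjusted p = 0.045). In the libraries named TRULI_d10 and DMSO_d10, edgeR called 0 of 23 adaptors, where 0% of all genes were called. There 2 adaptors had an unadjusted p under 0.05, against 4.52% of all genes.

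Ajuba, a LIM protein that binds α-catenin and the Lats kinases, stood with the libraries named TRULI_d5. It measured 143, 86.3 and 73.2 CPM in those 3 libraries and from 4.69 to 12.4 CPM in the other 7. By name it was the 1 adaptor that rose in TRULI_d5 over DMSO_d5, by 3.23 (SE 0.31, edgeR adjusted p = 0.00116), with 0 lower of 24 tested, against 3.32% of all genes. By label it rose in DMSO_d10 over DMSO_d5, by 2.89 (SE 0.29, edgeR adjusted p = 0.000504), since 2 of the 3 libraries are labelled DMSO_d10. Between labelled TRULI_d5 and DMSO_d5, 0 of 24 adaptors passed and 4 had an unadjusted p under 0.05, against 13.7% of all genes.

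With time by name, 4 adaptors rose and 5 fell between DMSO groups, and 5 rose and 2 fell between TRULI groups, each of 24 tested. Over all genes 19.2% and 14.3% were called there. Pvr, which encodes a nectin-like receptor that binds nectin-3, rose in both, by 1.35 (SE 0.32, edgeR adjusted p = 0.0231) and by 1.598 (SE 0.35, edgeR adjusted p = 0.0247). Ctnna2, the neural α-catenin, was lower in the named DMSO comparison by -4.83 (SE 1.16, edgeR adjusted p = 0.0242), from a mean of 3.80 CPM to 0.0784 CPM, the latter under the 3-count floor of its libraries.

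Of 20 other cadherins 4 could be tested in each comparison, and Cdh11, a mesenchymal cadherin, was the only one that passed. It fell in TRULI_d10 against DMSO_d5 by 1.25 on the log2 scale (SE 0.35, edgeR adjusted p = 0.0388), from 88.9 to 37.6 CPM. There 20.5% of all genes were called. Of 17 desmosome genes, whose cadherins share Jup with the adherens junction, 8 or 9 were tested. Dsp, which encodes desmoplakin, fell in TRULI_d10 against DMSO_d5 by 1.27 (SE 0.32, edgeR adjusted p = 0.0277), and Pkp4 by 0.99 (SE 0.29, edgeR adjusted p = 0.0436). These were 2 of 9 tested there, against 20.5% of all genes. Pkp2 was lower in the named TRULI libraries at 10 days than at 5 days, by -1.51 (SE 0.43, edgeR adjusted p = 0.0486). It was 1 of 9 tested, against 14.3% of all genes. In the other 7 comparisons 0 desmosome genes passed.

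Of 8 repressors of Cdh1 transcription, Tcf4 was the 1 tested in each comparison, and it did not pass in any of the 9. It lay between 447 and 776 CPM. Snai1 was at 3.06 CPM or less, Snai2 at 3.99 or less, Zeb1 at 1.74 or less and Zeb2 at 5.23 or less, and Twist2 had 0 counts in all 10 libraries. Of 10 genes that keep epithelia in their state, Epcam, an adhesion molecule of epithelia, fell by 1.30 in named TRULI_d5 against DMSO_d5 (SE 0.26, edgeR adjusted p = 0.024). It measured 4516, 5664 and 4410 CPM in DMSO_d5 and 1413, 1962 and 2445 CPM in the libraries named TRULI_d5. Epcam was the 1 called of 9 tested there, against 3.32% of all genes. By label, 0 of 8 passed at 5 days and 0 of 9 at 10 days. In TRULI_d10 against DMSO_d5, 2 of the 9 rose, Elf3 by 1.88 (SE 0.39, edgeR adjusted p = 0.0153) and Ovol1 by 2.70 (SE 0.70, edgeR adjusted p = 0.0293), and Grhl1, which encodes a grainyhead factor, was lower by -3.48 (SE 0.58, edgeR adjusted p = 0.00898). Over all genes 20.5% were called in that comparison. Against that share, 2 rose and 1 fell there of 15 genes that act on the cadherin complex after it is made, all tested. These were Numbl (2.01, SE 0.48, edgeR adjusted p = 0.0234), Csnk2a1 (1.06, SE 0.26, edgeR adjusted p = 0.0258) and Numb (-1.64, SE 0.37, edgeR adjusted p = 0.0193). Adam10, the protease that cleaves E- and N-cadherin, rose between named TRULI_d5 and TRULI_d10 by 1.96 (SE 0.38, edgeR adjusted p = 0.0194), where 5 of the 15 rose and 1 fell, against 14.3% of all genes called. Between the named DMSO groups 1 of the 15 rose with time and 3 fell, against 19.2% of all genes. Ctnnbip1, which encodes an inhibitor of β-catenin, was lower in named TRULI_d5 than in DMSO_d5 by -1.13 (SE 0.26, edgeR adjusted p = 0.0441). There 1 of the 15 was lower and 0 higher, against 3.32% of all genes.

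Other cells can carry these junction genes, and fewer cells of a type cannot be told apart from less RNA per cell in bulk samples. The 14 hair-cell markers summed to 51.8 and 57.3 CPM in the libraries labelled TRULI_d5 replicates 1 and 2 and to 1011 and 165 CPM in TRULI_d10 replicates 1 and 2. In the 6 libraries high in mt-Rnr2 they summed to 176 to 916 CPM. Nectin1 measured 86.6 and 63.7 CPM in the libraries with sums of 51.8 and 57.3 CPM. It measured 83.2 and 95.2 CPM in those with 1011 and 165 CPM, and 6.81 to 17.5 CPM in the 6 high in mt-Rnr2. The 10 fibroblast markers summed to 37.3 to 128 CPM in the 4 libraries low in mt-Rnr2 and 19.2 to 120 CPM in the 6. The 7 endothelial markers summed to at most 2.96 CPM, with 3 of them at 0 in every library, and the 10 macrophage markers to at most 18.1 CPM, with 5 at 0. The 7 muscle markers summed to 14.5 to 90.8 CPM in the 4 libraries low in mt-Rnr2 and to at most 2.40 CPM in the 6, nearly all of it from Myod1, with 2 markers at 0 throughout. The glial sums were 58.3 to 129.9 CPM in the 4 and 30.05 to 60.3 CPM in the 6, the neuronal sums 66.3 to 121 and 70.7 to 129 CPM, and the melanocyte sums 9.58 to 39.2 and 34.8 to 103 CPM. The part of these cells in the Nectin1 and Ctnna1 results was not tested.

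The genes nearest to each cadherin were taken over the 10 libraries from log2(CPM + 1) centred on its mean, by the root mean square difference across libraries. For Cdh1 these were Smc5 (0.14), Stt3a (0.15) and Bicd2 (0.16), where the median of 11917 protein-coding genes was 0.73. For Cdh2 they were Fut11 (0.21), the protocadherin gene Pcdhgb5 (0.24) and Alg13 (0.24), with a median of 0.87. For Cdh3 they were Unk (0.37), Gm10273 (0.40) and Acot9 (0.40), with a median of 1.06. None of the 10 members was among the 3 nearest to any of these cadherins. The libraries share their depth and their mt-Rnr2 level across all genes, so these are descriptions of likeness.

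Start-site windows of 300 bases, 250 before and 50 after the annotated start, were searched for 5 of the 10 members (7 windows, RefSeq sequences on GRCm38.p6). No window was held for Cdh1, Cdh3 or Nectin1. Cdh2 and Ctnna1 were left out of the search, so the counts below do not cover them. The 7 windows were searched on both strands for GGAATG, the core bound by the TEAD partners of Yap. The search also covered CACCTG, an E-box bound by Snail and Zeb factors, and GGGCGG, a GC box. GGAATG was in 0 of the 7 windows and in 14.7% of the 32851 windows of all genes. CACCTG was in 1, that of Nectin2, and in 20.2% of all windows, and GGGCGG was in 5, those of Ctnnb1, Jup, Nectin2 and Nectin3, and in 35.7% of all windows. Both windows of Ctnnb1 are among the 5. They overlap and share GC boxes, so they are not separate cases. The window of Nectin2, the one with an E-box, is shown with its E-box (CAGGTG on this strand) and its 3 GC boxes in capitals. The motifs do not overlap.
Nectin2 (chr7:19749524-19749823, - strand): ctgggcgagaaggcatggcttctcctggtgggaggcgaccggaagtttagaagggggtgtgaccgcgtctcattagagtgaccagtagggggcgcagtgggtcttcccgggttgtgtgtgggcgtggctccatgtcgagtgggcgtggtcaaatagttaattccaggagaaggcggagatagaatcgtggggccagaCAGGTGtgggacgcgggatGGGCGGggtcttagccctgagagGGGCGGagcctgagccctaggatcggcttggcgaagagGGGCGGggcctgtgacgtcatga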

How the data were processed

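RNA from sorted supporting cells was sequenced by the study, which mapped reads with STAR to GRCm38 (GRCm38 and mm10 in the submitters' processing notes). The authors deposited expected counts and effective lengths per gene without normalization. The counting program is not given in the sources used here. The labels name a poly(A) kit and the methods another kit. Expected counts were rounded to whole numbers, genes were named by GENCODE M21, and low counts were removed with filterByExpr. TMM-scaled groups were then tested in R 4.3.3 with the quasi-likelihood method of edgeR 4.0.16, with Benjamini-Hochberg adjustment over protein-coding genes and calls at an adjusted p under 0.05. DESeq2 1.42.0 was an alternative. Neither method was given the effective lengths. Each library's 3-count floor lay between 0.471 and 1.20 CPM, which covers counting error only. No 2 libraries held the same counts (lowest chi-square per degree of freedom 16.7). The replicate numbers of the deposited names pair TRULI_d5 with DMSO_d5, from the data and not from a stated source: same-numbered libraries deviated together (correlations 0.412, 0.204 and 0.338). Members and lists were chosen with earlier results of these data known. Named were all members, the 4 genes of lowest p per list and comparison at most, and the 3 genes nearest to each cadherin. In simulated counts with 200 genes changed 4-fold, 181 were recovered with 9 false calls among 10855 genes for the labelled comparison at 5 days and 124 with 8 false calls among 11911 at 10 days. The simulated dispersion, the squared variation between libraries beyond counting error, was 0.1. In the data its square root was 0.488 in the labelled comparison at 5 days and 0.464 at 10 days. The data thus varied more than the simulated counts, and these recoveries do not carry over to them.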

Additional observations from a re-analysis of the deposited data

How the results depend on the processing

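Counts of members called, of 10, moved as follows. With the condition from the deposited name the labelled count went to 0 for TRULI_d10 against DMSO_d10, 2 for DMSO_d10 against DMSO_d5 and 1 for TRULI_d10 against TRULI_d5. DESeq2 gave 1 in the labelled comparison at 5 days and 3 in named TRULI_d10 against TRULI_d5, in TRULI_d10 against DMSO_d5 and in named DMSO_d10 against DMSO_d5. No filter on low counts gave 1 in the labelled comparison at 5 days, 3 in named TRULI_d10 against TRULI_d5 and 4 in TRULI_d10 against DMSO_d5. One fit of all 10 libraries gave 0 in labelled TRULI_d10 against DMSO_d10, 0 in TRULI_d10 against DMSO_d5 and 3 in named TRULI_d10 against TRULI_d5. An unadjusted p gave 1 at 5 days by label and by name, 2 in labelled TRULI_d10 against DMSO_d10, 1 in labelled DMSO_d10 against DMSO_d5, 5 in TRULI_d10 against DMSO_d5, 3 in named DMSO_d10 against DMSO_d5 and 4 in named TRULI_d10 against TRULI_d5. The replicate block gave 1 in named DMSO_d10 against DMSO_d5, where Ctnna1 was lost, and changed no other member count. Labelled TRULI_d5 and DMSO_d5 libraries of 1 number did not deviate together (correlations -0.175, 0.0712 and -0.206), and the block took the calls over all genes there from 1 to 0. Leaving out 1 library gave 0 to 2 members in labelled TRULI_d5 against DMSO_d5 (2 without TRULI_d5 replicate 3), 0 to 3 in labelled TRULI_d10 against DMSO_d10, 1 to 4 in TRULI_d10 against DMSO_d5, 0 to 4 in named DMSO_d10 against DMSO_d5 and 0 to 3 in named TRULI_d10 against TRULI_d5. A lone library was assumed to vary like the other group.

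Folds of Cdh2, Nectin2 and Ctnna1 were among those that turned. The labelled Cdh2 difference of DMSO_d10 from DMSO_d5 was -1.005 by name, -0.0246 with the block, -0.0158 without DMSO_d5 replicate 2, and -0.30 to 0.30 with 1 library left out, and that of TRULI_d10 from TRULI_d5 was 0.0428 with the block and between -1.26 and 0.0761 with 1 library left out. With 1 library left out, the named differences at 10 days were -0.0350 to 0.67 for Nectin2, -0.52 to 0.56 for Cdh2 and -0.65 to 0.14 for Ctnna1. The Cdh1 to Cdh2 ratio between labelled DMSO_d10 and DMSO_d5 ranged from -0.0716 to 0.98 without 1 library. Of 619 refits of 53 further member folds, the named Cdh2 and Ctnna1 differences at 10 days among them, 58 changed sign and 0 of those passed the test. The cause was not tested.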
